A study of Homo sapiens with 63 samples.

Results

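Oxidative phosphorylation is the process by which mitochondria turn the energy of electrons from food into ATP. Electrons enter at complex I (NADH dehydrogenase) or complex II (succinate dehydrogenase), pass through complex III (the cytochrome bc1 complex) to complex IV (cytochrome c oxidase) and reach oxygen, and the proton gradient built on the way drives complex V, the ATP synthase. Most subunits of these machines are encoded in the nucleus and imported into mitochondria, while a small core is encoded in mitochondrial DNA. The genes described here are the nuclear ones. They were taken as the protein-coding genes whose symbols begin with NDUFA, NDUFB, NDUFC, NDUFS or NDUFV, UQCR, COX4, COX5, COX6, COX7 or COX8, ATP5F, ATP5M or ATP5P, plus SDHA, SDHB, SDHC and SDHD, leaving out the NDUFAF assembly factors. The rule gave 89 genes of 19863 protein-coding genes and 58336 genes in all: 40 for complex I, 4 for complex II, 9 for complex III, 17 for complex IV and 19 for complex V. No expression value entered the rule. It places NDUFA4 under complex I by its symbol, although its protein is now known as a subunit of complex IV, and it also takes in NDUFC2-KCTD14 and ATP5MF-PTCD1, read-through genes that share exons with a neighbour.

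The cells were HEK293T, a widely used line grown from human embryonic kidney, made to express the Halo tag, a protein that binds its ligands covalently, and total RNA was sequenced. The study concerned ibuprofen and ibufenac, a close relative that lacks the methyl group beside the carboxyl of ibuprofen, and their acyl glucuronides, reactive metabolites that the series title links to drug-induced liver injury. Cells were given Ht-Pre-AG-ibuprofen at 10 µM over 2 h, or Ht-Pre-AG-ibufenac in the same way, washed, and lit at 365 nm and 5 mW/cm2 for 3 min to free the acyl glucuronide. The 63 libraries formed 21 groups of 3: DMSO, and each drug as a bolus, in photocaged form or in probe form, each at 6, 12 and 18 h. All groups are of the same line with the same tag; the labels leave unsaid which promoter drives Halo, whether the line is a clone, what sets the probe form apart from the photocaged form, which arms were lit and how much drug the bolus held. Nor do they tell whether the 3 replicates were grown separately, so that p-values measure the spread between these samples, which may be technical. These are kidney-derived cells and not hepatocytes: the hepatocyte marker ALB reached at most 47 counts in a library, while the cytoskeletal markers VIM, KRT8, KRT18 and NEFM were abundant in every library and PAX2, a kidney lineage factor, was near absent at 0 to 15 counts. Blood markers reached at most 2 counts, and of the 4 fibroblast markers COL1A1 had 16 to 171, PDGFRA 0 to 44, DCN 0 to 4 and COL1A2 0 to 1.

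The median library held 19.6 M counts, and the range was 12.1 to 38.4 M. The subunit genes took 0.66% to 0.811% of each library. Changes are log2 fold changes with their standard errors from edgeR's quasi-likelihood test, adjusted by the Benjamini-Hochberg method over 19352 tested genes. A gene is said to rise or fall only at an adjusted p under 0.05. Comparisons over all times used 9 libraries an arm, and those at 1 time used 3. All drug arms share the same DMSO libraries. Replicate 3 of DMSO at 18 h stood apart from its group in hypoxia-regulated genes, with a mean of 6.80 log2 CPM (counts scaled to the library's total, in counts per M) against 5.97 and 5.98, and replicate 3 of the ibufenac bolus at 18 h also stood apart, here in the dependence of counts on GC content. Replicate 3 of the ibufenac bolus at 6 h stood apart in the genes of mitochondrial DNA. All of these together took 0.999% of its counts, against 0.284% and 0.238% in replicates 1 and 2. It also had the lowest mean over the nuclear members of its group, at 5.57 log2 CPM against 5.95 and 5.87.

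Of the 89 genes, 83 had enough counts to be tested. The 6 that did not are all complex IV isoforms of restricted tissue range. COX4I2, a lung and hypoxia form, COX6A2 and COX7A1, the heart and muscle forms, and COX7B2 had no count in any of the 63 libraries. COX6B2 and COX8C, known from testis, reached at most 10 and 7 counts. Their widely expressed partners were abundant: COX4I1 had a median of 291 FPKM (fragments per kilobase of transcript and M fragments, which corrects for length) in the 9 DMSO libraries, with a range of 255 to 307, and COX7A2 had 244 with a range of 222 to 266. NDUFA4L2, the hypoxia-induced relative of NDUFA4, never passed 15 counts, whereas NDUFA4 itself stood at 56.7 FPKM. ATP5MGL, a relative of the ATP synthase subunit g gene, never passed 18 counts.

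Across the tested genes the median in DMSO was 72.1 FPKM, against 3.98 for all tested genes. They are also short, with a median length of 773 bases against 2325 for all tested genes, and 75 of the 83 were shorter than that. Small structural subunits and a catalytic subunit of complex V led the order. COX7C, a small subunit of cytochrome c oxidase, had 349 FPKM (301 to 378) and ATP5F1B, the catalytic beta subunit of ATP synthase, had 322 (264 to 339). UQCRH, the hinge protein of complex III, followed at 310 (255 to 340) and COX6A1 at 304 (263 to 375). These ranges overlap, so the order among the leading genes is not resolved. Complex II sat lower. Its iron-sulfur subunit SDHB had 69.8 FPKM (64.7 to 74.4), its flavoprotein SDHA 65.9 (60.9 to 73.5), and its membrane anchors SDHD and SDHC 49.1 (38.8 to 54.9) and 25.8 (20.3 to 30.2). SDHA and SDHB overlapped, while SDHC lay below the other three in every DMSO library. UQCRFS1, the Rieske iron-sulfur protein of complex III, was among the lower core subunits at 19.2 FPKM (15.5 to 22). Of the catalytic core, NDUFV1 and NDUFS1, which take electrons from NADH in complex I, had 66.2 and 54.9 FPKM. COX5A of complex IV had 97.3 FPKM and ATP5F1A, the alpha subunit of ATP synthase, 168. The 3 genes for the c subunit of ATP synthase differed in level: ATP5MC2 had 300 FPKM (237 to 348), ATP5MC3 155 (117 to 186) and ATP5MC1 116 (111 to 135), so that ATP5MC2 lay above both others in every library and those 2 overlapped.

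**Figure D1:**
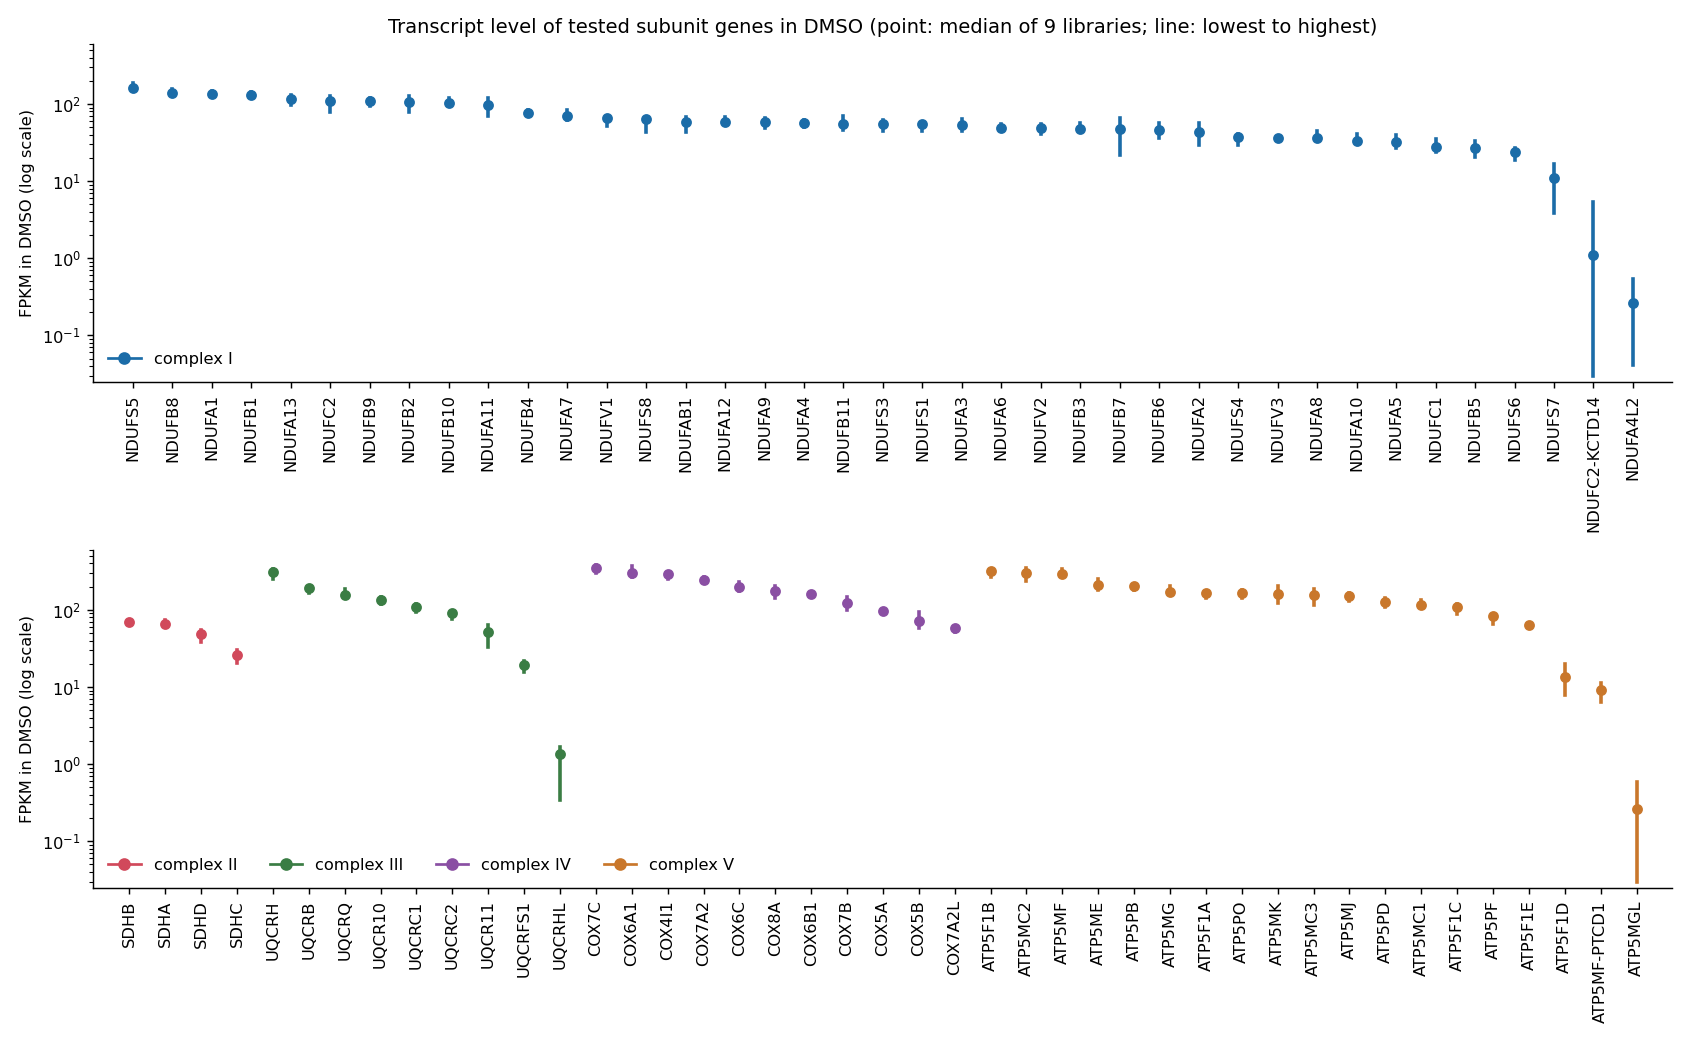
Level of 82 tested members in DMSO in FPKM on a log axis, by complex. Each point is the median over the 9 DMSO libraries and each line runs from the lowest to the highest library; COX7C leads at 349 FPKM, a line that reaches the axis includes a library near or at 0, and the 6 untested isoforms are not drawn.

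The promoters of these genes are known to carry sites for NRF1, GABP and other ETS factors, and YY1, the factors that tie nuclear genes to mitochondrial content. RefSeq promoter windows on GRCh38.p14, from 250 bases before to 50 after the start in a RefSeq entry for each gene, were matched for 70 of the 89 genes. On either strand, the NRF1 motif, a pair of GCGC blocks set 2 bases apart, was found in 18 windows, 25.7%, against 8.8% of 27305 windows of all genes. CCGGAAGT (ETS) was found in 14.3% against 4.4%, and ATGGCGG (YY1) in 27.1% against 5.7%. GGGCGGGGC (SP factors) was in 8.6% against 14.2%, and the 6-letter TATA box TATAAA in 10.0% against 12.0%. Median GC content was 61.2% in the member windows and 58.3% in all. A match describes letters and not a bound site. The stretches below come from members whose values are given later: the 4 NRF1 matches of SDHA, 1 each in UQCRC1, UQCRFS1 and NDUFA9, and the ETS match of ATP5MK. Capitals mark the match, and each runs 5′ to 3′ on the gene's strand. The RefSeq start can lie inside the gene as GENCODE annotates it. By those bounds the UQCRC1 and UQCRFS1 stretches lie within the gene, and that of SDHA runs past the gene's start at 218241.
SDHA, chr5:218150-218314, plus strand: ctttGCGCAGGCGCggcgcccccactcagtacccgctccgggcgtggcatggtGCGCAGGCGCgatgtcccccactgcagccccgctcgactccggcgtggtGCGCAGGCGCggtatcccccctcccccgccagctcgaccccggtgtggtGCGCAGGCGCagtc
UQCRC1, chr3:48609657-48609716, minus strand: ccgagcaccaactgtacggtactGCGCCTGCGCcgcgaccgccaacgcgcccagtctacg
UQCRFS1, chr19:29213162-29213211, minus strand: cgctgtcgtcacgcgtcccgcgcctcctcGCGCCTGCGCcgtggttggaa
NDUFA9, chr12:4649014-4649063, plus strand: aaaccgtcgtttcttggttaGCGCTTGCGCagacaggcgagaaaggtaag
ATP5MK, chr10:103396606-103396655, minus strand: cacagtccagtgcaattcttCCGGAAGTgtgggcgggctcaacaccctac

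Averaged over the 3 times, few subunit genes differed from DMSO in the filtered fit of all groups, and those that did moved little. The ibufenac probe gave the most: 2 genes rose and 12 fell of 83, 16.9% of the members against 13.2% of all tested genes (5.87% higher and 7.31% lower). The ibuprofen probe gave 1 higher and 2 lower, against 8.43% of all genes (3.81% higher and 4.61% lower). That count depends on the setting: it was 21 with no low-count filter, of which 20 fell, and 15 with only the compared groups in the fit, of which 14 fell. For the alternative settings in this paragraph the share of all genes called is not given, so the members cannot be set against it. Photocaged ibufenac gave none higher and 4 lower, against 7.49% of all genes (4.13% higher and 3.36% lower). Photocaged ibuprofen gave none higher and 1 lower, against 4.28% (1.98% higher and 2.3% lower). By direction, the members that fell under the ibufenac probe were 14.5% of the 83 tested members against that 7.31%. In both directions together, each share in this fit is near or below that of all genes. Single libraries moved these counts: the ibufenac probe gave 6 without its replicate 1 at 12 h, the ibuprofen probe 1 and 10 without its replicates 2 and 3 at 6 h, photocaged ibufenac 2 without its replicate 1 at 18 h, and photocaged ibuprofen 0 without DMSO replicate 3 at 18 h and 2 without DMSO replicate 2 or its own replicate 2 at that time. Neither bolus gave a call by edgeR, with 0.0258% of all genes called for ibuprofen and 0.0103% for ibufenac; 4 and 10 members had an unadjusted p under 0.05, and DESeq2 also called 0 in both, while edgeR with no low-count filter called 4 and 2, all lower. The median member change lay below 0 in every arm. It was -0.10 for the ibufenac probe, -0.07 for the ibuprofen probe, -0.07 for photocaged ibufenac and -0.04 for photocaged ibuprofen, and -0.08 and -0.01 for the ibufenac and ibuprofen boluses, while the median over all tested genes was within 0.01 of 0 in each. Without replicate 3 at 6 h the median for the ibufenac bolus was -0.04. Among the members fixed for description, NDUFA4, COX4I1, COX7A2, COX5A, NDUFS1, NDUFV1, ATP5F1A, UQCRFS1, SDHB, SDHC and SDHD passed in no arm over the 3 times. The fitted change was negative for 74 of 83 members under the ibufenac probe, against 52% of all tested genes. This lean was not particular to that arm. It held for 77 members under the ibufenac bolus, which had no call, against 51.8% of all genes, and for 69 under photocaged ibufenac, against 50.4%. The ibuprofen probe had 65, against 51.4%, photocaged ibuprofen 62, against 50.1%, and the ibuprofen bolus 47, against 48.8%. As for libraries, the mean log2 CPM over the members ran from 5.56 in replicate 1 of the ibufenac probe at 12 h to 6.12 in replicate 2 of the ibuprofen bolus at 18 h, with a pooled SD of 0.099 within groups. The lowest of these libraries also had a raised mean over the subunits encoded in mitochondrial DNA, 7.06 log2 CPM against 6.18 and 6.20 in the others of its group, and the part of this in the members' values was not tested.

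**Figure D2:**
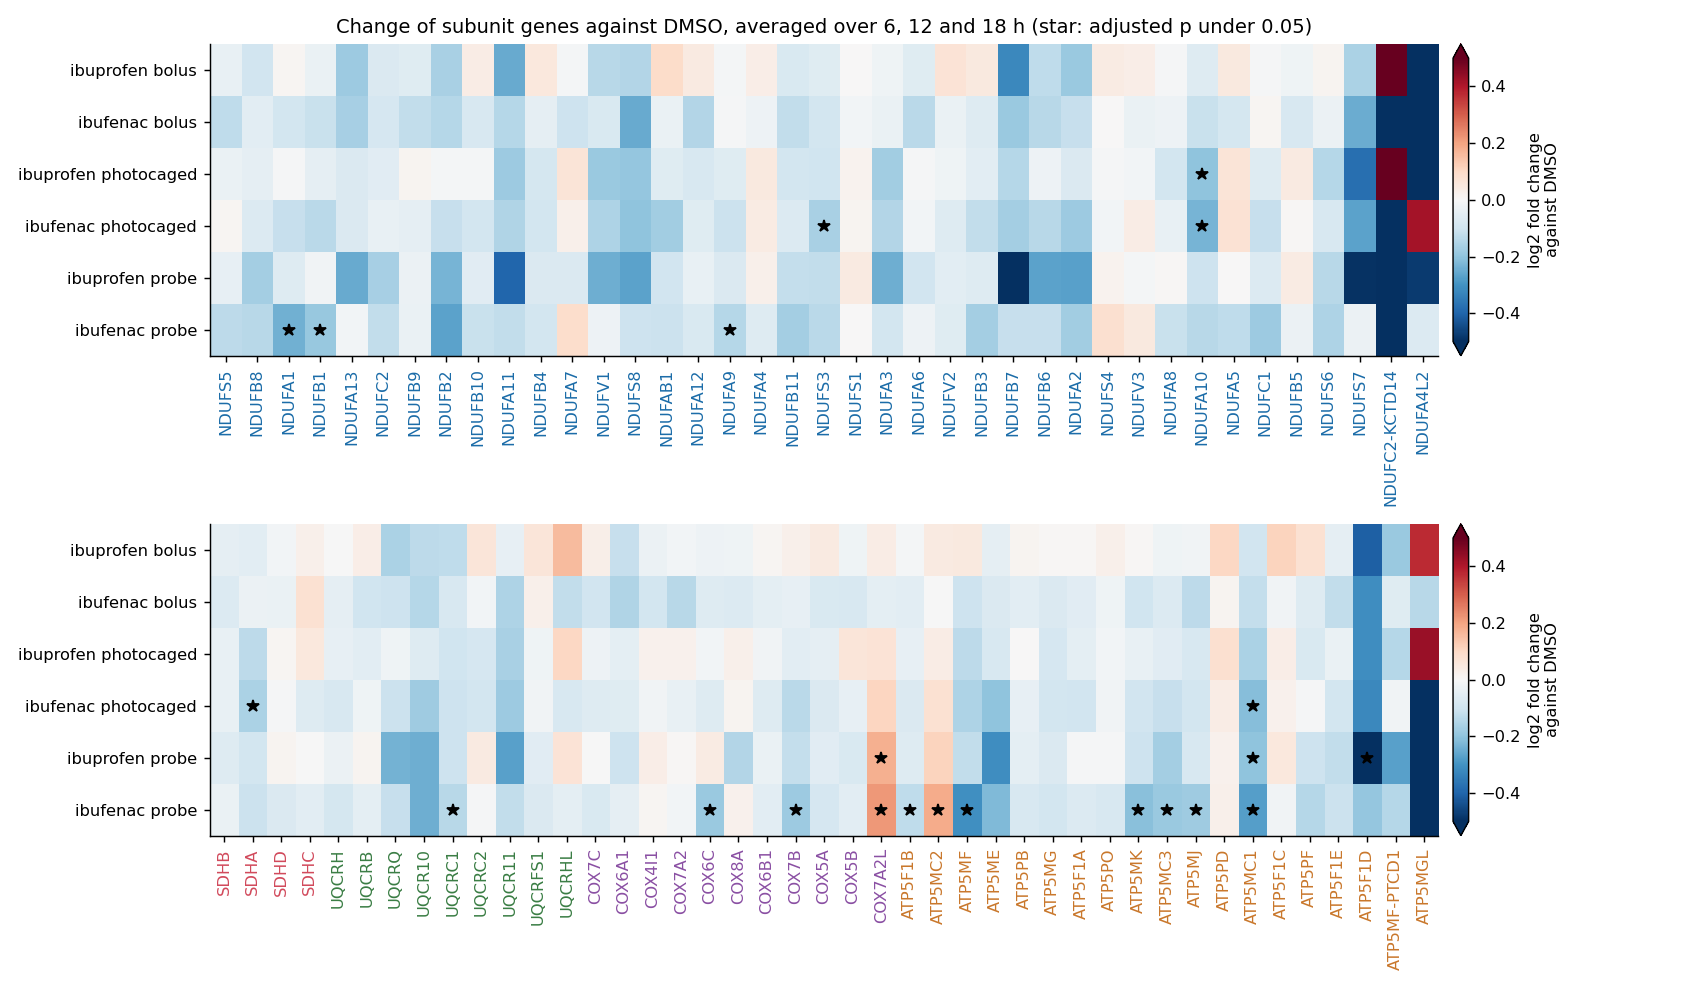
Log2 fold change against DMSO of 82 tested members (columns, named in the colour of their complex) in the 6 drug arms (rows), averaged over 6, 12 and 18 h. Colours saturate at the ends of the bar and a star marks an adjusted p under 0.05; COX7A2L rose in both probe arms, ATP5MC1 fell in 3 arms, and NDUFC2-KCTD14, NDUFA4L2 and ATP5MGL, dark without a star, are genes of very few counts.

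In complex V the 3 genes for the c subunit, the ring that turns as protons pass, went different ways. ATP5MC1 (ENSG00000159199, chr17:48892765-48895871), ATP5MC2 (ENSG00000135390, chr12:53632726-53677408) and ATP5MC3 (ENSG00000154518, chr2:175176258-175184607, all GENCODE on GRCh38) encode the same mature protein behind different import signals. ATP5MC1 had 65.4, 75.8 and 84.7 CPM as the lowest, median and highest of the 9 DMSO libraries. It had 49.0, 62.3 and 69.8 CPM under the ibufenac probe and 54.5, 62.5 and 71.8 CPM under photocaged ibufenac. In both arms all 3 libraries lay below DMSO of the same time at 6 and 18 h and overlapped it at 12 h. ATP5MC1 fell by 0.27 ± 0.06 (adjusted p = 0.000549) under the ibufenac probe, by 0.21 ± 0.06 (0.0128) under photocaged ibufenac and by 0.20 ± 0.06 (0.0204) under the ibuprofen probe. Under photocaged ibuprofen its change was -0.16 (adjusted p = 0.11), and it was -0.10 and -0.12 under the ibuprofen and ibufenac boluses, none of which passed.

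ATP5MC2 went the other way. Its DMSO libraries had 173, 204 and 240.5 CPM as the lowest, median and highest, and those of the ibufenac probe 219, 234 and 251 CPM. At 18 h the DMSO libraries had 181, 173 and 224 CPM and the ibufenac probe libraries 247, 251 and 234 CPM, so that the groups did not overlap there, nor at 12 h. ATP5MC2 rose by 0.19 ± 0.05 (adjusted p = 0.00363) under the ibufenac probe, and its change under the ibuprofen probe, 0.11 (0.134), did not pass. ATP5MC3 had 137, 157 and 201 CPM in DMSO and 117, 156 and 174 CPM under the ibufenac probe, where it fell by 0.19 ± 0.06 (0.0236). Its values overlapped DMSO at 12 and 18 h, and this call was lost in 5 of the 18 fits that left out 1 library, whereas those of ATP5MC1 and ATP5MC2 in the ibufenac probe were kept in all 18.

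Among the other ATP synthase genes, ATP5MF, a small membrane subunit, had 119, 128 and 139 CPM in DMSO and 74.04, 103.5 and 121 CPM under the ibufenac probe. It fell by 0.31 ± 0.07 (adjusted p = 0.0013), and its libraries lay below DMSO at 6 and 12 h. ATP5MK, a small accessory subunit, fell by 0.21 ± 0.06 (0.0121) and ATP5MJ, another, by 0.18 (0.0215). ATP5F1B, the catalytic beta subunit, fell by 0.13 ± 0.04 (0.00957), from a DMSO median of 556 CPM to 505 CPM, with ranges that overlapped (496 to 618 and 457 to 628). In all 6 of the 19 complex V genes fell and 1 rose under the ibufenac probe, with a median change of -0.14. ATP5F1D, the delta subunit of the central stalk, fell under the ibuprofen probe by 0.68 ± 0.22 (0.0407). That value rested on the 6 h libraries described further on; the call was kept in 9 of 18 fits that left out 1 library.

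In complex IV the gene that moved most clearly was COX7A2L (ENSG00000115944, chr2:42333546-42425088), whose protein is known to link complexes III and IV into supercomplexes. It had 61.8, 66.5 and 74.4 CPM as the lowest, median and highest in DMSO, 64.3, 78.0 and 82.3 CPM under the ibuprofen probe and 67.8, 77.1 and 88.4 CPM under the ibufenac probe. At 6 h the DMSO libraries had 68.3, 66.5 and 65.2 CPM. At that time the ibufenac probe libraries had 84.3, 78.9 and 88.4 CPM, the ibuprofen probe libraries 81.7, 78.9 and 78.0 CPM, those of photocaged ibufenac 81.8, 86.7 and 73.2 CPM, and those of photocaged ibuprofen 75.5, 81.2 and 74.2 CPM. All of these lay above every DMSO library at 6 h, while at 12 h all 4 arms overlapped DMSO. Over the 3 times COX7A2L rose by 0.22 ± 0.05 (adjusted p = 0.000971) under the ibufenac probe and by 0.18 ± 0.05 (0.0146) under the ibuprofen probe, and both calls were kept under every alternative setting and every fit without 1 library. Its change under photocaged ibufenac, 0.11 (0.178), did not pass. COX6C and COX7B, small subunits of the same complex, fell under the ibufenac probe by 0.18 ± 0.06 (0.0303) and 0.18 ± 0.05 (0.0122). The COX6C call was lost without the pair of 18 h libraries that stood apart.

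In complex I the gene seen in both photocaged arms was NDUFA10, a subunit of the membrane domain (ENSG00000130414, chr2:239892450-240025402). It had 66.5, 72.4 and 90.6 CPM as the lowest, median and highest in DMSO, 58.3, 62.5 and 71.4 CPM under photocaged ibufenac, and 55.3, 67.5 and 69.9 CPM under photocaged ibuprofen. At 12 h the DMSO libraries had 72.1, 82.6 and 72.4 CPM, those of photocaged ibufenac 62.5, 60.7 and 60.9 CPM and those of photocaged ibuprofen 67.3, 67.5 and 60.2 CPM. Both photocaged arms lay below DMSO at 12 and 18 h. NDUFA10 fell by 0.23 ± 0.05 (adjusted p = 0.00152) under photocaged ibufenac and by 0.20 ± 0.05 (0.0113) under photocaged ibuprofen. The latter call was lost without the pair of 18 h libraries that stood apart and in the fit of the compared groups alone. Its change under the ibufenac probe was -0.14 (0.0583). NDUFS3, a core subunit of the arm that reaches into the matrix, fell by 0.16 ± 0.05 (0.0394) under photocaged ibufenac, a call kept in 3 of 8 alternative settings. Under the ibufenac probe 3 of 40 complex I genes fell: NDUFA1 by 0.24 ± 0.07 (0.0128), NDUFB1 by 0.19 (0.0435) and NDUFA9, a peripheral subunit, by 0.14 (0.027). The NDUFB1 call was kept in 3 of 8 settings and that of NDUFA9 in 5 of 8.

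In complex II no gene was called under either probe over the 3 times. SDHA, the flavoprotein that oxidises succinate, fell by 0.16 ± 0.04 (adjusted p = 0.0142) under photocaged ibufenac, with 119.9, 136 and 148 CPM as the lowest, median and highest against 136, 144 and 175 CPM in DMSO. In complex III 1 of 9 genes fell under the ibufenac probe: UQCRC1, a core protein of the matrix side, by 0.14 (0.0294). It had 154, 172.5 and 188 CPM against 173, 184 and 207.5 CPM in DMSO. These ranges overlapped, and the UQCRC1 call was kept in 9 of 18 fits without 1 library.

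**Figure D3:**
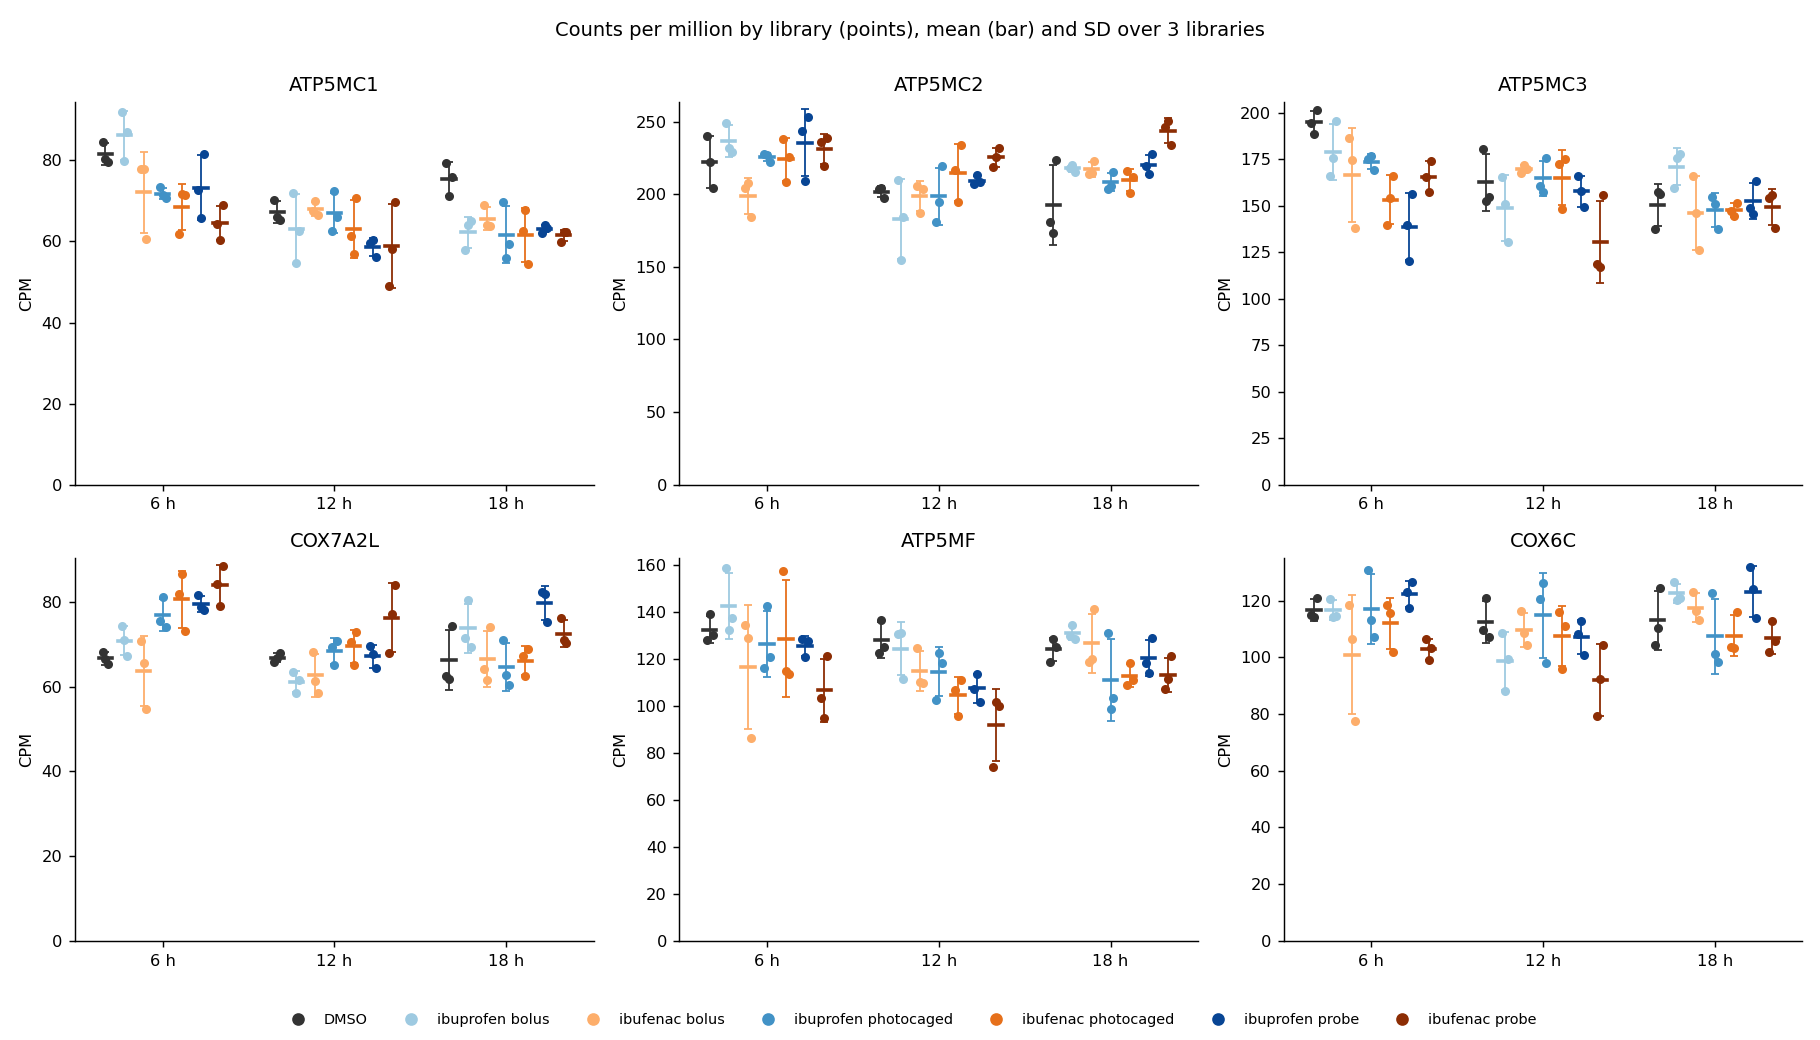
CPM for 6 members in the 7 arms (colours) at 6, 12 and 18 h. Each point is 1 library, with the mean as a bar and the SD over 3 libraries as a line; ATP5MC1 lies lower and ATP5MC2 and COX7A2L higher under the ibufenac probe than in DMSO, with the overlaps given in the text.

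Ibufenac and ibuprofen were next compared within each form, which gives 3 pairs. As bolus and as photocaged form no subunit gene differed by edgeR or by DESeq2, with 0% and 0.0362% of all genes called and 11 and 3 members at an unadjusted p under 0.05. As probe 1 gene differed, against 2.82% of all genes. This was COX6C, which was lower with ibufenac by 0.23 on the log2 scale (-0.23 ± 0.06, adjusted p = 0.0249; 95% interval -0.35 to -0.10). At 6 h its libraries had 106, 99.05 and 103 CPM with the ibufenac probe and 123, 117 and 127 CPM with the ibuprofen probe, and at 12 h 79.3, 92.3 and 104.5 against 108, 113 and 101 CPM. The groups did not overlap at 6 h and overlapped at 12 h. The call was kept in 13 of 18 fits that left out 1 library. For the other leading members the difference between the drugs as probes did not pass. It was -0.07 for ATP5MC1 (95% interval -0.19 to 0.04), 0.08 for ATP5MC2 (-0.02 to 0.17), 0.04 for COX7A2L (-0.06 to 0.14) and -0.18 for ATP5MF (-0.32 to -0.04, adjusted p = 0.137). With trends on GC and length removed from each library, a setting chosen after seeing the data, the difference for ATP5MF was -0.29 and passed (0.0392), and 5 members in all were called. Photocaged, NDUFA10 differed by -0.03 (-0.13 to 0.07) and SDHA by -0.03 (-0.12 to 0.06). These intervals bound the differences and do not show that the drugs act alike.

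The probe form was compared with the photocaged form for each drug, which gives 2 pairs. For ibuprofen no member differed by edgeR or DESeq2, with 0.0982% of all genes called and 7 members at an unadjusted p under 0.05. For ibufenac 1 differed, against 2.68% of all genes. This was NDUFA5, a subunit of the matrix arm of complex I, which was lower by 0.20 on the log2 scale in the probe arm (-0.20 ± 0.05, adjusted p = 0.0257; 95% interval -0.31 to -0.09). The NDUFA5 call was kept in 11 of 18 fits that left out 1 library. COX7A2L was 0.11 higher as probe with either drug, with an interval of 0.01 to 0.20, which did not pass after adjustment (0.25 for ibufenac and 0.456 for ibuprofen). For NDUFA10 the probe form lay 0.10 above the photocaged form with ibuprofen and 0.09 with ibufenac, and these differences did not pass either.

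Several subunit genes differed between times in the DMSO cells, a smaller share than over all genes. From 6 to 18 h 1 rose and 7 fell of 83, 9.64% of the members against 17.5% of all genes (7.42% higher and 10% lower). UQCRFS1 had 76.2, 77.1 and 73.1 CPM at 6 h, 63.7, 71.9 and 64.0 CPM at 12 h and 58.6, 62.2 and 57.8 CPM at 18 h, with no overlap between any pair of times. It fell by 0.34 from 6 to 18 h (adjusted p = 0.000979). NDUFB5, a membrane subunit of complex I, did the reverse: 29.7, 27.5 and 25.5 CPM at 6 h, 31.2, 34.1 and 30.4 CPM at 12 h and 37.8, 34.8 and 40.1 CPM at 18 h. It rose by 0.45 (0.00353), and its times did not overlap either. NDUFA9 fell by 0.30 (0.00374), from 109.5, 99.95 and 93.6 CPM at 6 h to 83.4, 80.0 and 81.7 CPM at 18 h. The others that fell were ATP5MC3 by 0.38 (0.00585), ATP5MK by 0.37 (0.00855), NDUFA5 by 0.32 (0.00974), ATP5F1C, the central-stalk gamma subunit, by 0.20 (0.0193) and ATP5F1B by 0.18 (0.0252). Without DMSO replicate 1 at 18 h 4 members were called between 6 and 18 h. From 6 to 12 h no member was called by edgeR, against 3.82% of all genes, with 20 at an unadjusted p under 0.05 and 1 called by DESeq2. With no low-count filter 12 fell, and with only the compared groups in the fit 9 were called. The shares of all genes called in these settings are not given.

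At single times the subunit genes stood out in 1 comparison of the filtered fit of all groups, the ibuprofen probe at 6 h. There 23 fell and 2 rose of 83, 30.1% of the members against 11.4% of all tested genes (3.61% higher and 7.82% lower). Complex I gave 15 of those that fell, complex V 5 and complex III 3. NDUFB7, a complex I subunit of the intermembrane side, had 17.45, 24.8 and 26.95 CPM in DMSO and 5.90, 4.75 and 10.1 CPM with the probe, and fell by 1.75 ± 0.43 (adjusted p = 0.00685). ATP5F1D fell by 1.79 ± 0.39 (0.00288), from 7.65, 10.9 and 13.4 CPM to 2.64, 1.72 and 5.05 CPM. NDUFS7, the core subunit that carries the last iron-sulfur cluster before ubiquinone, fell by 1.48 ± 0.38 (0.00805), from 8.02, 15.9 and 17.4 CPM to 3.96, 4.87 and 6.02 CPM. In these 3 genes the groups did not overlap. NDUFA11, NDUFA2 and ATP5ME fell by 1.02, 0.97 and 0.86, and ATP5MC3 by 0.49 (0.00153), while COX7A2L rose by 0.26 (0.0364).

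The number of calls in this comparison moved with single libraries. GC slopes and GC content are given beside it, and their part in the changes was not tested. Without replicate 2 of the ibuprofen probe at 6 h 1 member was called, and without replicate 3 there were 30. Over all tested genes the slope of log2 CPM on GC content was -0.262, -0.274 and -0.12 per 10 percentage points in the 3 libraries of that group, against -0.063, 0.081 and 0.067 in DMSO at 6 h. The members that fell had a median GC content of 53.9%, against 48.3% over all tested genes. With trends on GC and length removed from each library, 17 members were called, and the share of all genes called there is not given. NDUFB7 then changed by -0.96 (adjusted p = 0.00924), ATP5F1D by -1.09 (0.00269), NDUFS7 by -0.97 (0.0186) and ATP5MC3 by -0.54 (0.000671), while NDUFB11 turned from -0.37 to 0.08. NDUFA11, at -0.38 (0.0608), and COX7A2L, at 0.22 (0.0747), no longer passed in that setting.

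**Figure D4:**
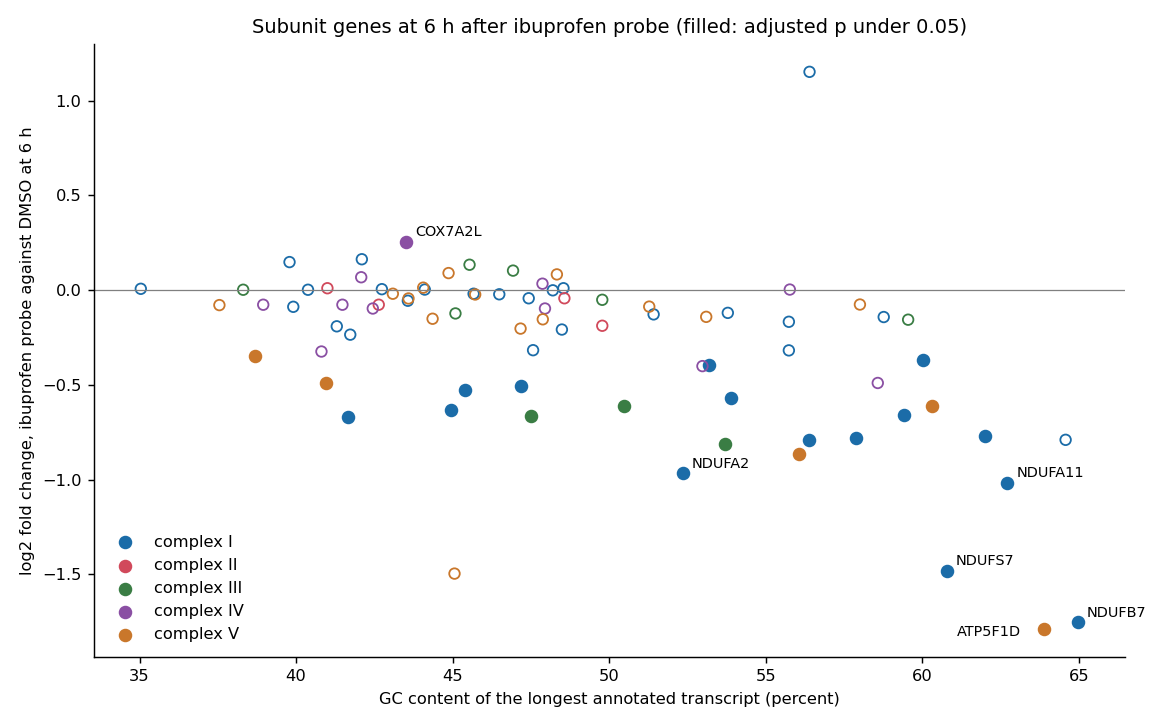
Log2 fold change of 82 tested members in the ibuprofen probe at 6 h against DMSO (3 libraries each), plotted on the GC content of its longest annotated transcript in percent, coloured by complex. Filled points passed the test at an adjusted p under 0.05; the members that fell had a median GC content of 53.9%.

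**Figure D5:**
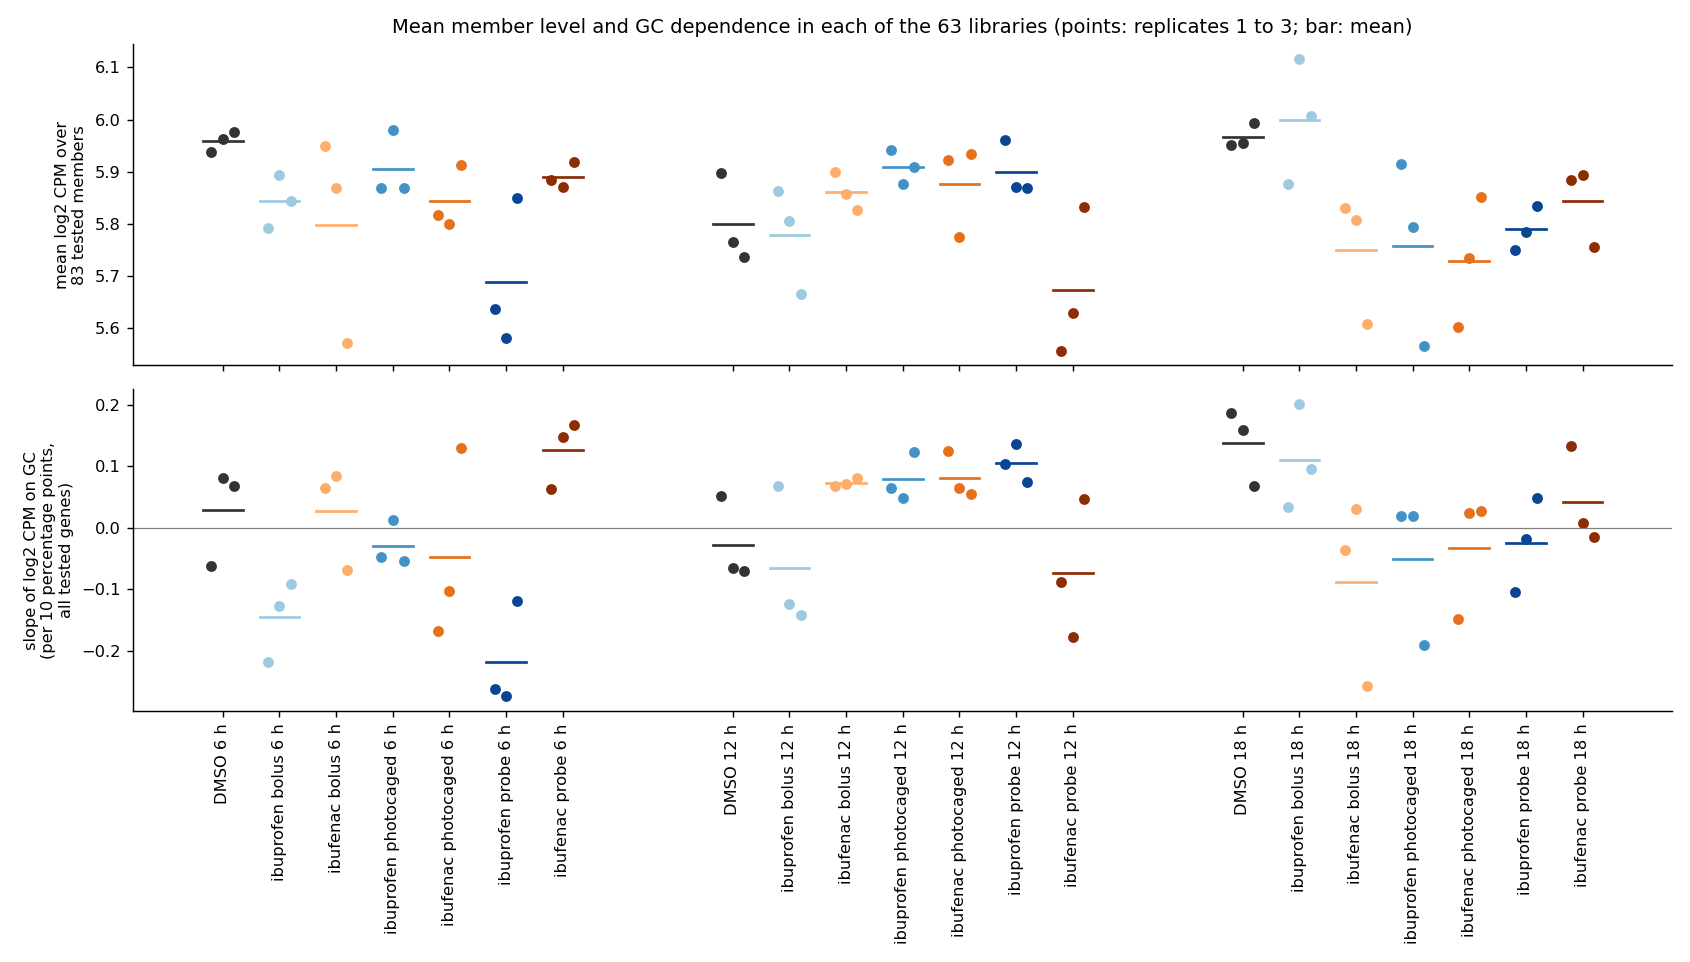
Upper panel, mean log2 CPM over the 83 tested members in each of the 63 libraries; lower panel, slope of log2 CPM on GC content over all tested genes, per 10 percentage points, in the same libraries. Points are replicates and bars group means; the ibuprofen probe at 6 h holds the lowest slopes, down to -0.274, and 2 of its libraries are among those of lowest member mean.

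The other single times gave few calls. At 6 h the ibufenac probe had 5 lower and 1 higher, against 12.7% of all genes (4.63% higher and 8.11% lower). ATP5MK fell by 0.47 (adjusted p = 0.00109), from 67.9, 61.7 and 78.7 CPM to 54.0, 49.6 and 47.3 CPM, and the groups did not overlap. NDUFB1 fell by 0.44 (0.00537), ATP5MC1 by 0.34 (0.0173), and ATP5PF, a stator-stalk subunit, and COX7B by 0.29 each (0.049 and 0.0216), while COX7A2L rose by 0.33 (0.00419). ATP5MC3 fell by 0.35 under photocaged ibufenac, where 3.03% of all genes were called. At 12 h the ibufenac probe had 2 lower, against 4.51% of all genes: ATP5MF by 0.48 (0.0111) and SDHD, a membrane anchor of complex II, by 0.26 (0.0306). SDHD had 71.8, 66.3 and 71.65 CPM in DMSO and 55.8, 57.25 and 62.1 CPM with the probe, and no call was left without replicate 1 of the probe. No member was called by edgeR in the remaining comparisons at 6 and 12 h. At 6 h these were the ibuprofen bolus, with 0% of all genes called, the ibufenac bolus, with 0.0258%, and photocaged ibuprofen, with 0.992%. They held 18, 20 and 2 members at an unadjusted p under 0.05. DESeq2 called 0 in each, and edgeR with no low-count filter called 16, 3 and 1, all lower. At 12 h they were the ibuprofen bolus, with 0.0103% of all genes, and the ibufenac bolus, with 0%, which held 4 members each at an unadjusted p under 0.05 and 0 by DESeq2. With no low-count filter these gave 0 and 4. Photocaged ibuprofen at 12 h, with 0.677% of all genes, held 11 and photocaged ibufenac, with 1.58%, held 15, and DESeq2 called 1 in each. The ibuprofen probe at 12 h, with 1.97%, held 16, and DESeq2 called 3. These 3 zeros depend on the setting. With no low-count filter photocaged ibuprofen gave 13, photocaged ibufenac 15 and the ibuprofen probe 13, and with only the compared groups in the fit they gave 10, 15 and 18, most of them higher than DMSO. The shares of all genes called under these alternative settings are not given, so the members cannot be set against them.

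At 18 h SDHA was the gene called most widely. Its DMSO libraries had 173, 155 and 175 CPM. They stood above the 143, 154 and 144 CPM of DMSO at 6 h and the 136, 139 and 142 CPM at 12 h in each case. At 18 h SDHA had 129, 144 and 127 CPM under photocaged ibuprofen, 119.9, 144 and 145 CPM under photocaged ibufenac, 141, 141 and 137 CPM under the ibufenac probe, and 143, 156 and 126 CPM under the ibufenac bolus. All but the bolus lay below every DMSO library. It fell by 0.33 (adjusted p = 0.0131), 0.30 (0.0184), 0.26 (0.0432) and 0.25 (0.0443) in that order; the 4 comparisons share the DMSO libraries. Without the pair of 18 h libraries that stood apart the call was kept only under photocaged ibuprofen. Replicate 3 of photocaged ibuprofen, with a GC slope of -0.19, stayed in that fit. In a fit that left out this library the SDHA call was lost. NDUFS8, a core iron-sulfur subunit of complex I, fell by 0.78 (0.0137) under the ibufenac bolus and by 0.68 (0.0453) under photocaged ibuprofen. It had 58.3, 58.0 and 55.8 CPM in DMSO, 40.7, 36.1 and 22.8 CPM with the bolus and 42.5, 37.0 and 28.2 CPM with photocaged ibuprofen. The lowest value in each drug group was replicate 3, and the GC slopes of these libraries were -0.257 and -0.19. COX6A1 fell by 0.42 (0.0496) under the ibufenac bolus and by 0.45 (0.0476) under photocaged ibufenac, and each of these COX6A1 calls was kept in 3 of 8 alternative settings. NDUFS7 also fell under the ibufenac bolus (adjusted p = 0.0326), from 19.8, 14.96 and 22.1 CPM to 10.1, 10.45 and 3.105 CPM, with its lowest value again in replicate 3. ATP5MC2 rose by 0.34 (0.0105) under the ibufenac probe. The ibufenac bolus gave 0 calls without its replicate 3, and each photocaged arm gave 0 without DMSO replicate 3. Counts at 18 h were 4 lower for the ibufenac bolus against 5.03% of all genes, 2 lower for each photocaged arm against 2.21% (ibuprofen) and 2.86% (ibufenac), and 1 of each direction for the ibufenac probe against 2.69%. The ibuprofen bolus and probe had none by edgeR, against 0.0723% and 1.78% of all genes, with 5 and 15 members at an unadjusted p under 0.05 and 0 and 2 by DESeq2. With no low-count filter the bolus again gave 0, while the ibuprofen probe gave 13, the ibufenac bolus 18 and the photocaged arms 18 and 20, all lower. The shares of all genes called in that setting are not given, so the members cannot be set against them.

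A test of whether the treatment effect varied with time, over all 6 drug arms and 3 times, called 30 of 83 members, 36.1% against 22.8% of all tested genes. They were 15 of 40 in complex I, 3 of 4 in complex II, 2 of 9 in complex III, 5 of 11 in complex IV and 5 of 19 in complex V. The smallest adjusted p-values were those of NDUFS7 (4.24e-05), NDUFS8 (4.49e-05), NDUFB7 (5.58e-05) and COX6A1 (7.52e-05). Called members had a median GC content of 52.7% and those not called 45.7%. Of the 14 members of 57% GC or more 9 were called, and of the other 69 there were 21, with 57% chosen after seeing the data. With GC and length trends removed 30 were again called, 22 of them shared, and the share of all genes in that setting is not given. The 3 complex II calls were lost there, with adjusted p-values of 0.0506 for SDHA, 0.0583 for SDHB and 0.0923 for SDHD. COX8A, NDUFB11, NDUFV1, NDUFA7 and NDUFA3 were lost as well.

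Genes that work with the subunits were described from lists. The 13 subunits encoded in mitochondrial DNA were not called in any arm over the 3 times by edgeR. At an unadjusted p under 0.05 there were 2 under the ibuprofen bolus, 6 under the ibufenac bolus and 0 in the other 4 arms, whose medians were -0.08 to 0.06. The bolus medians, 0.27 and 0.48, went with single libraries. The ibufenac bolus had medians of 1.76, -0.35 and 0.18 at 6, 12 and 18 h. Its 6 h libraries had a mean over the 13 genes of 6.19, 5.85 and 8.46 log2 CPM, against 6.21, 6.10 and 6.09 in DMSO, so that only replicate 3 was above DMSO. The ibuprofen bolus had medians of 0.09, 0.92 and -0.27 at those times. Its 12 h libraries had 5.89, 7.27 and 7.44 log2 CPM, against 6.10, 6.40 and 5.76 in DMSO, so that replicates 2 and 3 were above it. The list of 4 carriers and subunits outside the symbol rule held CYC1, CYCS, ATP5IF1 and DMAC2L. CYCS, the cytochrome c that carries electrons from complex III to IV, fell by 0.25 (adjusted p = 0.000297) under the ibuprofen probe and by 0.28 (1.56e-05) under the ibufenac probe. CYCS had 238, 225 and 227 CPM at 6 h in DMSO, 193, 164 and 192 CPM with the ibuprofen probe and 184, 175 and 173 CPM with the ibufenac probe, and the groups did not overlap. ATP5IF1, the inhibitor of the ATP synthase, fell by 0.20 (0.015) and 0.21 (0.0047) in the same arms. DMAC2L had 23.1, 25.4 and 26.2 CPM at 6 h in DMSO and lay above these with the ibuprofen probe, at 30.7, 32.25 and 30.8 CPM. With the ibufenac probe its 28.3, 28.7 and 20.2 CPM overlapped DMSO. CYC1 overlapped DMSO at 6 h in both arms. It had 95.75, 121 and 107 CPM in DMSO and 77.85, 71.0 and 102 CPM with the ibuprofen probe. With the ibufenac probe it had 107.5, 114 and 115 CPM. Of 12 regulators of mitochondrial gene expression, PPARGC1B, a coactivator of this programme, fell in all 4 photocaged and probe arms, by 0.22 (0.0324) and 0.33 (0.000394) with photocaged ibuprofen and ibufenac and by 0.25 (0.00748) and 0.48 (1.83e-07) with the probes. At 6 h PPARGC1B had 44.1, 39.3 and 42.4 CPM in DMSO and 22.9, 22.1 and 25.5 CPM with the ibufenac probe. The calls over the 12 regulators are not given, so PPARGC1B does not stand for the list. POLRMT had 57.6, 65.6 and 67.5 CPM at 6 h in DMSO and 79.7, 89.3 and 104.9 CPM with the ibufenac probe. With the ibuprofen probe it had 34.7, 33.7 and 50.4 CPM. ESRRA likewise lay above DMSO with the ibufenac probe and below it with the ibuprofen probe at 6 h.

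Among 49 assembly factors, the ibufenac probe gave 3 higher and 7 lower, against 13.2% of all genes called, and the ibuprofen probe 3 higher and 1 lower, against 8.43%. SDHAF4, which helps to join SDHA to SDHB, rose by 0.83 (adjusted p = 0.000148) with the ibufenac probe and 0.50 (0.0411) with the ibuprofen probe, and TTC19, a factor of complex III, rose by 0.20 (0.00052) with the ibufenac probe. LRPPRC, which stabilises mitochondrial messenger RNA, fell by 0.14 (0.0172) there. Of 78 mitochondrial ribosomal proteins 2 rose and 8 fell with the ibufenac probe, close to that 13.2%, and 8 fell with the ibuprofen probe. In the photocaged arms 3 fell with ibuprofen, against 4.28% of all genes, and 2 rose and 3 fell with ibufenac, against 7.49%; neither bolus gave a call by edgeR, with 6 at an unadjusted p under 0.05 in each. Hypoxia-regulated genes moved in the same arms. Of 11 tested, 8 fell with the ibufenac probe, against 7.31% of all genes lower, and 6 with the ibuprofen probe, against 4.61%. With photocaged ibufenac 9 fell, against 3.36%, with photocaged ibuprofen 8, against 2.3%, and none with either bolus. These averages include DMSO replicate 3 at 18 h, which stood above its group in these genes (6.80 against 5.97 and 5.98 log2 CPM). No fit without that library is given for them. LDHA, lactate dehydrogenase, fell by 0.69 (4.71e-09) with the ibufenac probe, with 399, 359.8 and 434 CPM at 6 h against 697, 623 and 658 CPM in DMSO. Their part in the subunit genes' values was not tested.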

How the data were processed

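The authors deposited expected counts per gene for 58336 Ensembl genes in 63 libraries without normalization, and FPKM for the same genes. Of count values of 1 or more, 22.6% are not whole, and they were rounded. Libraries were ribosome-depleted total RNA from a stranded kit, per the labels' protocols; no aligner, counter, strand setting or genome build is given in the sources used. Gene names came from current symbols (57754 genes) and GENCODE 29 (462 more). The main test was edgeR 4.0.16 (R 4.3.3), quasi-likelihood, over 21 groups (TMM factors 0.91 to 1.11, filterByExpr minimum count 10, 42 residual degrees of freedom), with 32 two-sided comparisons, each adjusted over 19352 genes at 0.05. Alternatives were DESeq2 1.42.0, RLE factors, no filter, a replicate block, offsets for gene length or for GC content and length, the compared groups alone, and fits without libraries; the GC setting was chosen after seeing the data. FPKM served for levels between genes only. Totals were 12.1 to 38.4 M counts. Over tested genes, mean squared differences between libraries of a group were 4.61 to 49.28 times those of counting error alone. On that mean the spread between libraries exceeded counting error, and the mean does not speak for genes of few counts.

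Members named with full values were, by rule, up to 4 called with the largest change in each direction in an averaged comparison, those called alike in at least 3 arms, the 4 smallest interaction p-values and 21 fixed members. Members, rule and lists (isoforms, mitochondrial-genome subunits, carriers and subunits outside the rule, assembly factors, regulators, mitochondrial ribosomal proteins, hypoxia genes, cell markers) were chosen with earlier results of these data known. Among the tested members 1 is counted but not reported here by name or drawn singly. Pseudogenes took at most 1.67% of the counts of a parent gene and its pseudogenes together, so shared reads could touch NDUFA9 and NDUFV2 most. In simulated data with planted changes, the ibufenac probe comparison over 3 times recovered 42%, 82% and 88% of genes changed 1.25, 1.5 and 2-fold among 19352 genes, and the interaction test 0%, 18% and 52% of genes changed at 6 h only. All 14 members called in that comparison changed by less than 1.25-fold.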

Additional observations from a re-analysis of the deposited data

Results flagged for a closer look

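In 30 members the drug effect differed between times by edgeR's interaction test with 12 degrees of freedom, adjusted over all tested genes, where 22.8% of all genes were called. In complex I the adjusted p-values were 4.24e-05 for NDUFS7, 4.49e-05 for NDUFS8, 5.58e-05 for NDUFB7, 0.000394 for NDUFA2, 0.000518 for NDUFA11, 0.000837 for NDUFC2, 0.00136 for NDUFA13, 0.00217 for NDUFB8, 0.0028 for NDUFB2, 0.00464 for NDUFB11, 0.00583 for NDUFV1, 0.0078 for NDUFA7, 0.0163 for NDUFC1, 0.0243 for NDUFA3 and 0.0484 for NDUFB6. In complex II they were 0.0184 for SDHB, 0.0341 for SDHD and 0.0352 for SDHA. In complex III they were 7.98e-05 for UQCR11 and 0.000465 for UQCRQ. In complex IV they were 7.52e-05 for COX6A1, 0.0019 for COX8A, 0.00257 for COX5B, 0.036 for COX7A2L and 0.039 for COX4I1. In complex V they were 0.000279 for ATP5F1D, 0.00677 for ATP5F1E, 0.0146 for ATP5MC3, 0.0177 for ATP5ME and 0.0474 for ATP5MK. With GC and length trends removed, SDHA, SDHB, SDHD, COX8A, NDUFB11, NDUFV1, NDUFA7 and NDUFA3 no longer passed. No formal test for outlying libraries was made, since all groups hold 3; the libraries seen to stand apart are given with the results.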

How the results depend on the processing

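The median change of the members kept its sign under every setting in the averaged comparisons with DMSO other than the ibuprofen bolus, where it ran from -0.037 to 0.005, and for the ibufenac probe over 3 times the count of 14 called members stayed within 1.5 times under each of the other settings. ATP5MC1, ATP5MC2, ATP5MF and COX7A2L under the ibufenac probe and NDUFA10 and ATP5MC1 under photocaged ibufenac were called under all 8 alternatives and all 18 fits without 1 library. Other counts moved as given here, as members called, with averaged values first, and the cause was not tested. The share of all genes called in each setting is not given. These counts thus cannot be set against the calls over all genes.

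With DESeq2, photocaged ibuprofen gave 2 and the ibuprofen probe 6. At 6 h photocaged ibufenac gave 4. At 12 h photocaged ibuprofen and photocaged ibufenac gave 1 each and the ibuprofen probe 3. At 18 h the ibufenac bolus gave 8, photocaged ibuprofen 5, photocaged ibufenac 5, the ibuprofen probe 2 and the ibufenac probe 4. DMSO at 12 against 6 h gave 1. With RLE factors photocaged ibufenac gave 2 at 6 h and 1 at 12 h.

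With a length trend removed, photocaged ibuprofen gave 2, the ibuprofen probe 5 and ibufenac probe against photocaged 5. Photocaged ibufenac gave 2 at 6 h. At 12 h the ibuprofen probe gave 2 and the ibufenac probe 5, and at 18 h each photocaged arm and the ibuprofen probe gave 1. DMSO at 18 against 6 h gave 16. With GC and length trends removed, a setting chosen after seeing the data, photocaged ibuprofen gave 3, photocaged ibufenac 8, the ibuprofen probe 7, ibufenac against ibuprofen as probe 5, and ibufenac probe against photocaged 4. At 6 h photocaged ibufenac gave 4 and the ibufenac probe 10. At 12 h photocaged ibufenac gave 1, the ibuprofen probe 4 and the ibufenac probe 7. At 18 h the ibufenac bolus gave 2, and DMSO gave 1 at 12 and 13 at 18 against 6 h. NDUFB11 turned to 0.085 in the ibuprofen probe at 6 h.

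With no low-count filter, the boluses gave 4 (ibuprofen) and 2 (ibufenac), the photocaged arms 3 and 7, and the ibuprofen probe 21. The drug differences gave 1 as bolus, 1 photocaged and 10 as probe, and probe against photocaged gave 3 for ibuprofen and 0 for ibufenac. At 6 h the boluses gave 16 and 3 and the photocaged arms 1 and 9. At 12 h the ibufenac bolus gave 4, the photocaged arms 13 and 15, and the probes 13 and 8. At 18 h the ibufenac bolus gave 18, the photocaged arms 18 and 20, and the probes 13 and 1. DMSO at 12 against 6 h gave 12.

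With only the compared groups in the fit, photocaged ibuprofen gave 0, the ibuprofen probe 15 and ibufenac probe against photocaged 0. Photocaged ibufenac gave 0 at 6 h. At 12 h the photocaged arms gave 10 and 15 and the probes 18 and 0. At 18 h the ibufenac bolus, both photocaged arms and the ibufenac probe gave 0 and the ibuprofen probe 7. DMSO gave 9 at 12 and 4 at 18 against 6 h. Without DMSO replicate 3 and ibufenac bolus replicate 3 at 18 h, which stood apart, photocaged ibuprofen gave 0 and the ibuprofen probe 6. Photocaged ibufenac gave 3 at 6 h and 1 at 12 h, and the ibuprofen probe 1 at 12 h. At 18 h the ibufenac bolus gave 0, the photocaged arms 1 and 0, and the probes 2 and 1.

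With a replicate block, photocaged ibufenac at 18 h gave 1, and no other count moved by over 1.5 times. Same-numbered libraries of a time deviated together in few cases: the median correlation over 189 pairs was 0.002, 3 pairs were over 0.1, and 28 of 63 libraries correlated best with their own number, so the numbers were not taken as pairing.

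Leaving out 1 library at a time, with the full fit's dispersion trend and filter, gave 0 to 2 called members for photocaged ibuprofen, 2 to 6 for photocaged ibufenac, 1 to 10 for the ibuprofen probe and 6 to 18 for the ibufenac probe. It gave 0 to 2 for ibufenac against ibuprofen as probe and 0 to 2 for ibufenac probe against photocaged. At 6 h it gave 0 to 3 for the ibufenac bolus, 0 to 4 for photocaged ibufenac, 1 to 30 for the ibuprofen probe and 4 to 6 for the ibufenac probe. At 12 h it gave 0 to 2 for the ibuprofen bolus and 0 to 4 for the ibufenac probe. At 18 h it gave 0 to 8 for the ibufenac bolus, 0 to 3 for each photocaged arm, 0 to 2 for the ibuprofen probe and 0 to 1 for the ibufenac probe. DMSO gave 0 to 1 at 12 and 4 to 10 at 18 against 6 h, and the interaction 25 to 35. In every other comparison the count stayed at 0.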
